A study of Rattus norvegicus with 8 samples.

Results

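Immediate early genes are the genes a cell switches on within minutes of a stimulus, before any new protein has been made. Many of their products are transcription factors. FOS and JUN proteins pair through leucine zippers to form AP-1, EGR1 binds DNA through zinc fingers, ATF3 is a stress-induced zipper protein that often represses, and NR4A1 is an orphan nuclear receptor. IER2 is a nuclear protein of the same early wave, and IER3 is a survival and signalling regulator rather than a DNA-binding factor. Between stimuli the transcripts of most of these genes are kept low, because they are made in short bursts and broken down fast, and in heart muscle cells they are best known for their rapid induction by stretch, adrenergic agonists and serum. The genes described here are Fos, Fosb, Fosl1, Jun, Junb, Egr1, Ier2, Ier3, Atf3 and Nr4a1, chosen by gene symbol. Each symbol matched 1 row, which gave 10 of the 21017 genes listed.

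The cells were cardiomyocytes of newborn rats (strain SD), and their RNA was sequenced 48 h after a small interfering RNA had been introduced. The 4 siECHS1 libraries received a duplex against Echs1, the gene of a mitochondrial enoyl-CoA hydratase used in fatty acid oxidation, and the 4 siNC libraries the control duplex. No untransfected cells and no earlier time were analysed here, so the values describe 1 late time. No label states that replicates are separate cultures or animals. The p-values therefore reflect spread among these libraries alone, and that spread may be technical. The Echs1 row averaged 0.516 ± 0.112 FPKM in siECHS1 and 1.33 ± 0.244 FPKM in siNC (SD, n = 4 each), and no siECHS1 library reached the lowest siNC library. The Echs1 row is low, with a mean over the 8 libraries below the 1 FPKM that the test required. A second row, with the symbol LOC100911186, was also chosen to check the knockdown. It averaged 3.38 ± 0.385 FPKM in siECHS1 and 6.61 ± 0.782 FPKM in siNC. Values are FPKM, in which the fragments of a gene are divided by its length and by the library's total. The libraries held between 16915190 and 18197004 reads in listed genes. Changes are siECHS1 over siNC on the log2(FPKM + 1) scale, which understates the change of low genes, and were tested by limma with Benjamini-Hochberg adjustment over the 12616 genes whose mean reached 1 FPKM. In this comparison 21.0% of the tested genes passed an adjusted p of 0.05, 8.83% higher and 12.2% lower. That excess of lower calls (1114 higher, 1541 lower) depends on the scaling: median-of-ratios scaling gave 1288 higher and 1242 lower, and quantile normalization 1280 higher and 1436 lower.

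These genes are textbook examples of control through short upstream elements. The stretches shown are the 250 bases before the RefSeq start of Ier2, Nr4a1 and Junb (GRCr8, plus strand), given because the elements that signal kinases act on can be read in them. Capitals mark matches to TGACGTCA, the cyclic AMP response element, in Ier2 (chr19:40399123-40399372). In Nr4a1 (chr7:134259888-134260137) they mark TGACG, the core of that element, and GCGGGGGCG, a site bound by EGR1. In Junb (chr19:40080876-40081125) they mark TGACG and TATAAA, the TATA box.
Ier2: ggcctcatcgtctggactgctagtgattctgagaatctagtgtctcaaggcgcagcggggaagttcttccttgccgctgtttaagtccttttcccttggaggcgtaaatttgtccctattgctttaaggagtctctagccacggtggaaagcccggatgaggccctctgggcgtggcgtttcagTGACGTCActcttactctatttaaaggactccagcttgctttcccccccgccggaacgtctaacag
Nr4a1: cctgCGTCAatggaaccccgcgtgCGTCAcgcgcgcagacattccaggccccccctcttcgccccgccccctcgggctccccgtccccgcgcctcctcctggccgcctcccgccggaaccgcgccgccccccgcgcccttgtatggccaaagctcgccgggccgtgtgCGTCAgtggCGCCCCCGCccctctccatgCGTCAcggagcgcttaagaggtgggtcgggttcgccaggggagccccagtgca
Junb: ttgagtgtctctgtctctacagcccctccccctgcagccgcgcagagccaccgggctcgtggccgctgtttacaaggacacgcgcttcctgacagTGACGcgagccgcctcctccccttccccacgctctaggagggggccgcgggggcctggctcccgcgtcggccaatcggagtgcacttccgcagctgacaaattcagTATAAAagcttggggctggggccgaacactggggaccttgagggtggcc

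Of the 10 genes, 6 have an entry in the promoter table used (Fosb, Fosl1, Junb, Egr1, Ier2 and Nr4a1). Both strands were searched, and matches on the minus strand appear in the printed sequence as their reverse complement, such as CGTCA. The core TGACG stood in 5 of the 6 windows, all but that of Fosb, against 18.2% of the 33469 windows in the table, and it is contained in the full element TGACGTCA. Nr4a1 held 4 copies of TGACG, at 246, 226, 82 and 53 bases before the start. The full element TGACGTCA stood only in the window of Ier2 among the 6, against 1.59% of all windows. The CArG box, bound by serum response factor, was found in 1 of the 6, Egr1, which held 2 of them, against 501 of all windows. The AP-1 sites TGACTCA and TGAGTCA stood in 0 of the 6 windows and in 4.05% of all, and the EGR1 sites GCGGGGGCG and GCGTGGGCG in 1 of the 6, Nr4a1, and in 2.85% of all. TATAAA was found in Junb and Fosb, and in 12.9% of all windows. The 6 windows differed in base composition, from 43.6% GC in Fosb, the one without TGACG, to 74.8% in Nr4a1, against a median of 51.2% over all windows, and the part of composition in these shares was not tested. A match describes letters in these windows and was not tested for binding.

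All 10 genes were detected in all 8 libraries, at levels that spanned a wide range. Ier3 was the most abundant, at 91.1 ± 1.75 FPKM in siECHS1 and 90.1 ± 6.22 FPKM in siNC, above 92.5% of the tested genes. Junb followed with 75.0 ± 4.75 FPKM in siECHS1 and 68.9 ± 5.48 FPKM in siNC. Egr1, Jun and Ier2 lay between 30.1 and 48.3 FPKM in every library, and Nr4a1, Fos and Fosl1 between 8.82 and 13.0 FPKM. Fos, the gene after which the family is named, was at about the middle of the tested genes, of which 49.5% were lower. Atf3 was lower, and Fosb was the lowest at 1.49 ± 0.326 FPKM in siECHS1 and 1.70 ± 0.284 FPKM in siNC, above 6.63% of tested genes. In this order of levels, the ranges of neighbours did not overlap except for Nr4a1 and Fos in both groups, and for Egr1 and Jun and for Fos and Fosl1 in siNC.

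**Figure D1:**
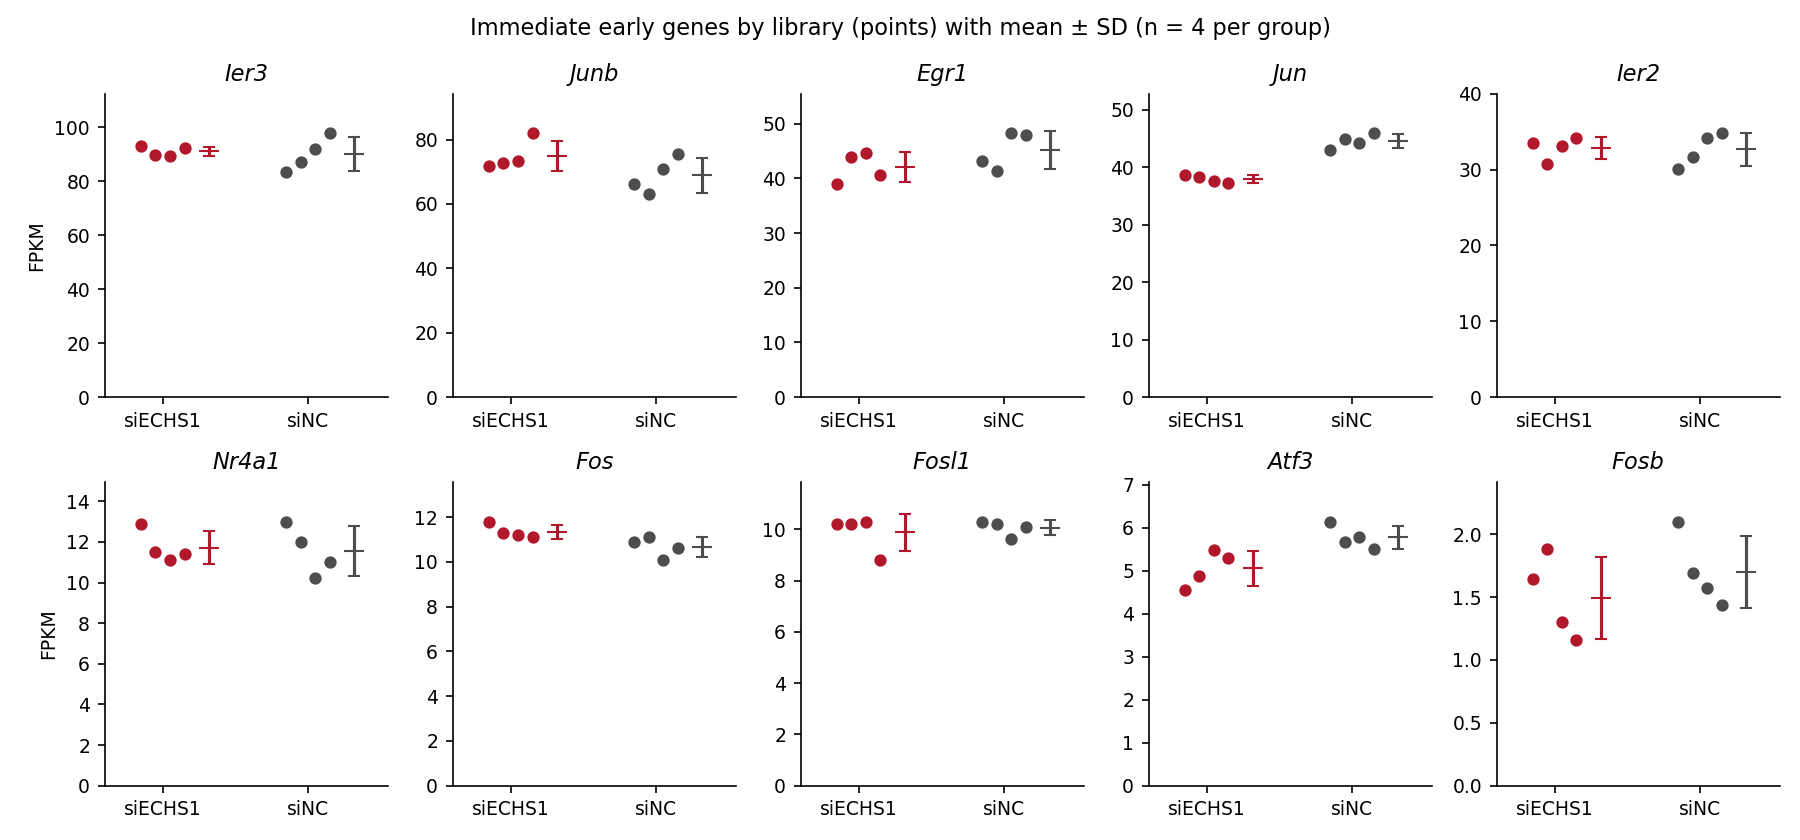
FPKM of each of the 10 immediate early genes in the 4 siECHS1 and 4 siNC libraries (points, in the order of their replicate numbers), with mean ± SD beside them and the genes ordered by level. The siECHS1 points of Jun (37.2 to 38.7 FPKM) lie below all siNC points (43.0 to 45.9 FPKM), the groups of Atf3 come close without overlapping, and those of the other 8 genes overlap.

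Jun was the 1 gene of this group that passed the threshold. JUN is the central AP-1 subunit, able to pair with itself, with FOS proteins and with ATF proteins, and it activates its own gene. Jun (ENSRNOG00000026293, chromosome 5, 114011189 to 114014277, minus strand in the deposited table) had 38.7, 38.2, 37.6 and 37.2 FPKM in the siECHS1 libraries, against 43.0, 44.8, 44.1 and 45.9 FPKM in the siNC libraries. The groups did not overlap, and the 4 siECHS1 libraries lay within a narrow band. The mean was 37.9 ± 0.671 FPKM in siECHS1 and 44.4 ± 1.21 FPKM in siNC, a ratio of 0.853. The log2 change was -0.22 (SE 0.03, 95% interval -0.30 to -0.15, limma adjusted p = 0.00138). By exact permutation of the group labels (70 assignments, two-sided) p was 0.0286, the smallest that 4 against 4 allow. Between 2034 and 2474 reads stood behind each value, and the spread between libraries (1.77% of the mean in siECHS1 and 2.71% in siNC) was close to the 2.18% and 2.04% that counting alone gives.

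Jun was 1 of 10 genes called, against 21.0% of all tested genes, with 0 higher and 1 lower. At an unadjusted limma p under 0.05 there were 0 higher and 2 lower, Jun and Atf3. Over the 12616 tested genes 1844 were higher and 2506 lower at that p. The median change of the 10 was -0.008, against -0.014 over all tested genes, and the median size of change was 0.090 against 0.102. Their groups did not overlap for 2 of the 10, against 25.2% of all tested genes. These shares are not above the background. Summed over the 10 genes the level was 318 ± 3.79 FPKM in siECHS1 and 321 ± 15.6 FPKM in siNC.

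Junb, which in many settings counteracts JUN at growth-promoting genes, had the largest positive difference of the 10 but did not pass the test. Junb (chromosome 19, 26092974 to 26094756) had 71.8, 72.7, 73.2 and 82.0 FPKM in siECHS1, against 66.2, 63.0, 70.9 and 75.5 FPKM in siNC. The groups overlapped, since replicate 4 of siNC was above 3 siECHS1 libraries, and replicate 4 was the highest library of both groups. The log2 change was 0.12 (95% interval -0.01 to 0.26, limma adjusted p = 0.185). With the replicate number as a block the same difference gave an adjusted p of 0.0426, but the numbers are not known to pair the libraries. Library spread exceeded counting noise here, at 6.34% of the mean in siECHS1 and 7.96% in siNC, against 2.04% and 2.16% by counting.

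The share of Jun in the summed FPKM of Jun and Junb was lower in siECHS1. It is built on the Jun values given above and is no separate evidence. Jun made up 35.0, 34.4, 33.9 and 31.2% of the summed FPKM of Jun and Junb in siECHS1, against 39.4, 41.6, 38.4 and 37.8% in siNC, with no overlap between groups. This share was computed after the levels had been seen, so it is given without a test. The whole JUN family did not show such a separation, because Jund, a constitutively made JUN gene, varied widely between libraries of the same group. Jund had 59.2, 90.6, 66.0 and 88.9 FPKM in siECHS1, against 74.6, 55.4, 94.5 and 67.9 FPKM in siNC. With Jund included, the share of Jun was 17.9 to 22.8% in siECHS1 and 21.1 to 27.4% in siNC, and the family sum was 189 ± 18.6 FPKM in siECHS1 and 186 ± 19.1 FPKM in siNC. Ratios of other pairs were computed as well. Fosl1 over Fos did not overlap between the groups, while Fos over Fosb and Egr1 over Jun did.

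**Figure D2:**
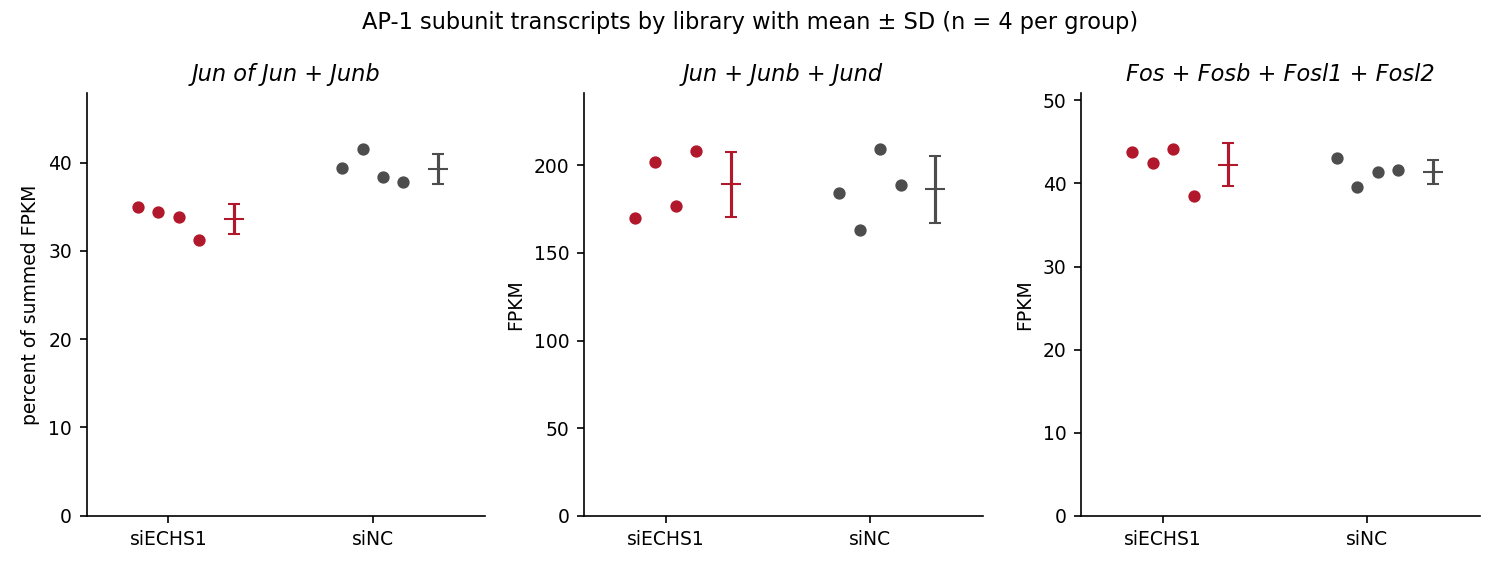
AP-1 subunit transcripts in the 4 siECHS1 and 4 siNC libraries (points) with mean ± SD: the percent that Jun makes up of the summed FPKM of Jun and Junb, the summed FPKM of the 3 JUN genes, and the summed FPKM of the 4 FOS genes. The Jun share is 31.2 to 35.0% in siECHS1 and 37.8 to 41.6% in siNC, while both family sums overlap between groups.

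The FOS genes, whose products cannot pair with themselves and need a JUN partner, did not pass the test. Fos (chromosome 6, 109300433 to 109303299) had 11.8, 11.3, 11.2 and 11.1 FPKM in siECHS1, against 10.9, 11.1, 10.1 and 10.6 FPKM in siNC. The groups met at 1 library each, where the lowest siECHS1 value was just under the highest siNC value. The log2 change of Fos was 0.08 (95% interval -0.02 to 0.18, limma adjusted p = 0.244). These values rest on 276 to 339 reads a library, and both groups spread less than the 5.56% and 5.81% that counting alone gives. Fosl1, which encodes FRA-1, a FOS protein without the strong activation domain of FOS, had 10.2, 10.2, 10.3 and 8.82 FPKM in siECHS1 and 10.3, 10.2, 9.64 and 10.1 FPKM in siNC. Its change was -0.03 (95% interval -0.15 to 0.10, adjusted p = 0.794), and without replicate 4 of siECHS1, which stood apart, it was 0.02. Fosb ranged from 1.16 to 1.88 FPKM in siECHS1 and from 1.44 to 2.10 FPKM in siNC, on 78 to 143 reads. Its change of -0.12 had the widest interval of the 10 (-0.37 to 0.13, limma adjusted p = 0.503). It rested on single libraries, being -0.05 without replicate 4 of siECHS1 or without replicate 1 of siNC, and -0.19 without replicate 2 of siECHS1. Together with Fosl2 the FOS genes summed to 42.3 ± 2.60 FPKM in siECHS1 and 41.4 ± 1.45 FPKM in siNC.

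Atf3 came closest to Jun without passing. ATF3 is induced downstream of ATF4 in the integrated stress response and dimerises with JUN proteins. Atf3 (chromosome 13, 109817728 to 109849632) had 4.56, 4.87, 5.48 and 5.29 FPKM in siECHS1, against 6.14, 5.66, 5.79 and 5.51 FPKM in siNC. The groups did not overlap, but the highest siECHS1 and the lowest siNC library were nearly equal. The log2 change was -0.17 (SE 0.06, 95% interval -0.31 to -0.02, unadjusted p = 0.0275, limma adjusted p = 0.0959), and the exact permutation p was 0.0286. Atf4 itself, which encodes its activator, rose to 159 ± 4.83 FPKM in siECHS1, against 145 ± 2.91 FPKM in siNC (log2 change 0.13, limma adjusted p = 0.0167). Atf4 was singled out after its values were seen. Activity of the ATF4 protein was not measured, and a link between the Atf4 and Atf3 values was not tested.

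Egr1, Nr4a1, Ier2 and Ier3 showed no difference past the threshold. Egr1 (chromosome 18, 27657628 to 27661429), whose gene serum response factor and its partner ELK1 switch on, had 39.0, 44.0, 44.7 and 40.7 FPKM in siECHS1, against 43.2, 41.3, 48.3 and 48.0 FPKM in siNC. Its groups overlapped, and its change was -0.10 (95% interval -0.24 to 0.04, limma adjusted p = 0.288). Nr4a1 (chromosome 7, 142905758 to 142920216) ranged from 11.1 to 12.9 FPKM in siECHS1 and from 10.2 to 13.0 FPKM in siNC (log2 change 0.03, interval -0.14 to 0.19, adjusted p = 0.832). Ier2 (chromosome 19, 25774143 to 25775659) ranged from 30.7 to 34.1 FPKM in siECHS1 and from 30.1 to 34.8 FPKM in siNC. The deposited table types this row as a pseudogene, although it names the IER2 protein as its match. Ier3 (chromosome 20, 3438798 to 3440769) ranged from 89.5 to 92.9 FPKM in siECHS1 and from 83.4 to 97.8 FPKM in siNC. The log2 changes of Ier2 and Ier3 were 0.01 (95% interval -0.11 to 0.13, adjusted p = 0.928) and 0.02 (95% interval -0.09 to 0.12, adjusted p = 0.836). For Ier3 the interval leaves out falls below 0.94-fold and rises above 1.09-fold on this scale, and for Ier2 those below 0.93-fold and above 1.09-fold.

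The 10 genes did not share a high or a low library. In siECHS1, replicate 1 was the highest library for 4 genes and the lowest for 3, and replicate 4 was the highest for 2 and the lowest for 4. In siNC, replicates 1 and 4 were each the highest for 4 genes, and every replicate was the lowest for 2 or 3. After the group means were taken off, the average of the 10 genes moved only between -0.023 and 0.022 on the log2 scale over the 8 libraries. Rai2, Gmnn, Wdr91, Pip5k1a and Dnajc14 followed that average most closely among 9068 genes, with Pearson correlations of 0.98, 0.95, 0.95, 0.95 and 0.93 over the 8 libraries. These are the highest of many correlations with a profile of very small amplitude.

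**Figure D3:**
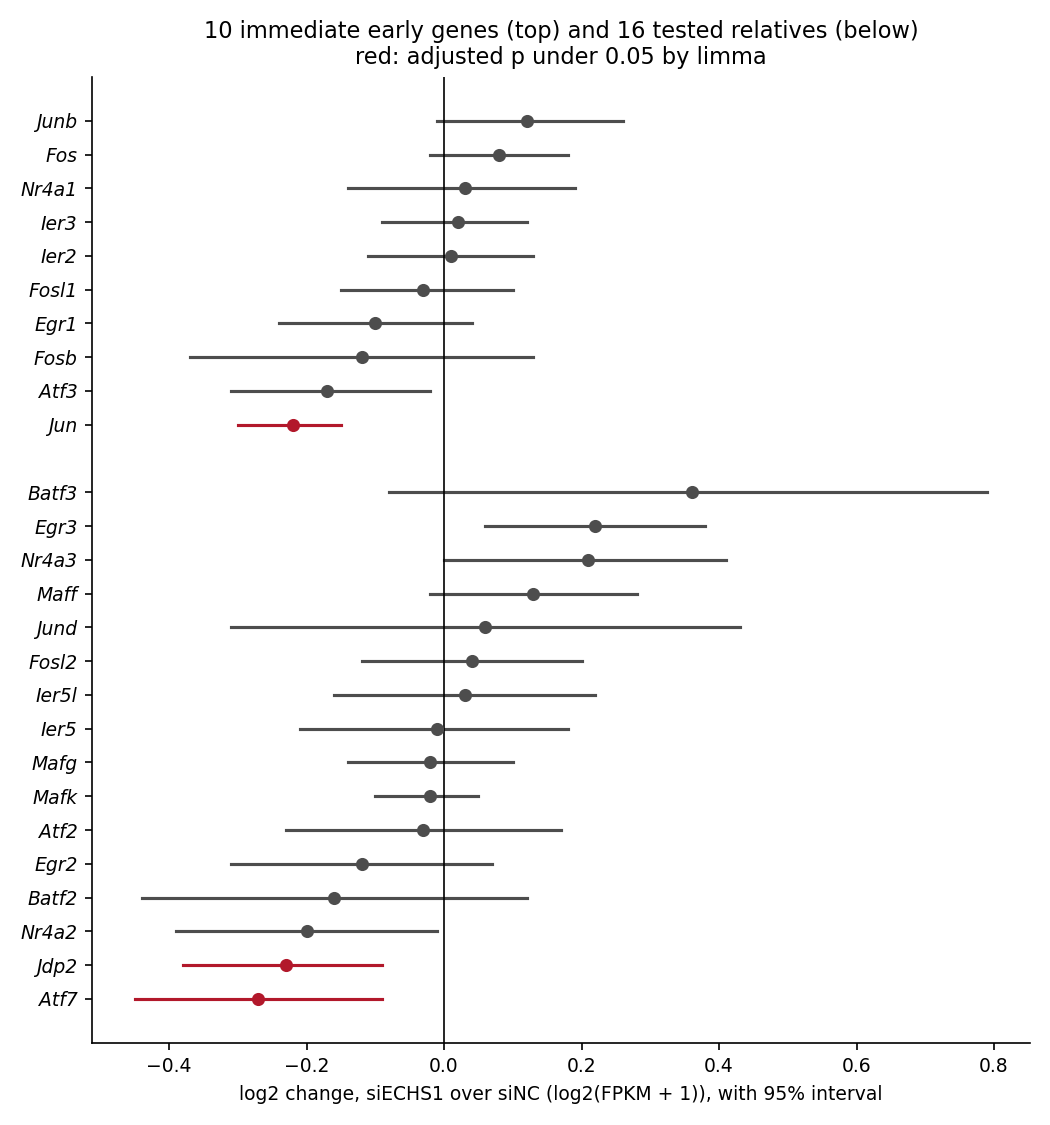
Log2 change, siECHS1 over siNC, of the 10 immediate early genes (top) and 16 tested members of the same families (below), with 95% intervals from limma. Jun (-0.22) is the one gene called in the upper block, and Jdp2 (-0.23) and Atf7 (-0.27) are those called in the lower block.

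Other genes of the same families were compared next. Of 18 further AP-1, EGR, NR4A and IER genes, 16 were tested. At an unadjusted limma p under 0.05, 1 was higher and 3 lower, against 1844 and 2506 of the 12616 tested genes. After adjustment 0 rose and 2 fell. That is 12.5% called, below the 21.0% of all tested genes. Both that fell encode zipper proteins that bind near-AP-1 sites. So do several that did not pass: Fosl2, Jund, Batf2, Batf3, Atf2, Maff, Mafg and Mafk also encode zipper proteins. Jdp2, a JUN dimerisation partner that represses AP-1, had 17.9, 17.6, 21.3 and 17.6 FPKM in siECHS1, against 21.2, 22.9, 23.1 and 20.8 FPKM in siNC. Its log2 change was -0.23 (adjusted p = 0.0292) although replicate 3 of siECHS1 overlapped siNC. Atf7, a relative of ATF2 that pairs with JUN, averaged 13.3 ± 1.47 FPKM in siECHS1 and 16.3 ± 1.44 FPKM in siNC, and its groups did not overlap (log2 change -0.27, adjusted p = 0.0389). The call was lost in 7 of 17 alternatives for Jdp2 and in 10 of 17 for Atf7. The adjusted p of Jdp2 lay between 0.00464 and 0.0860 over the alternatives, and that of Atf7 between 0.0168 and 0.101.

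The relatives of Egr1 and Nr4a1 did not pass. Egr3 ranged from 2.58 to 3.16 FPKM in siECHS1 and from 2.17 to 2.49 FPKM in siNC, without overlap (log2 change 0.22, limma adjusted p = 0.0509). Over its alternatives that p lay between 0.0239 and 0.134. Egr2 averaged 6.19 ± 0.906 FPKM in siECHS1 and 6.76 ± 0.117 FPKM in siNC, and Egr4 was below the filter. Nr4a2 averaged 1.29 ± 0.153 FPKM in siECHS1 and 1.63 ± 0.198 FPKM in siNC (adjusted p = 0.135), and Nr4a3 averaged 3.35 ± 0.289 FPKM in siECHS1 and 2.79 ± 0.439 FPKM in siNC (adjusted p = 0.149). The remaining tested relatives were Fosl2, Jund, Batf2, Batf3, Atf2, Maff, Mafg, Mafk, Ier5 and Ier5l, with changes between -0.16 and 0.36. Batf was below the filter.

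The genes that act on the 10 showed small changes. Of 35 tested upstream kinases and factors 2 rose and 7 fell, or 25.7% against 21.0% of all tested genes, with a median change of -0.017. Srf, whose product binds the CArG box, fell to 41.1 ± 1.58 FPKM in siECHS1, against 46.7 ± 1.41 FPKM in siNC. Mapk3, which encodes the kinase ERK1, fell to 83.5 ± 4.63 FPKM in siECHS1, against 94.6 ± 2.46 FPKM in siNC, and Mapkapk2, a kinase under p38, to 110.2 ± 2.03 FPKM, against 124 ± 3.30 FPKM. Mef2d, a factor that binds the Jun promoter, fell to 39.8 ± 2.16 FPKM in siECHS1, against 45.2 ± 1.18 FPKM in siNC. Mapk8, which encodes the JUN kinase JNK1, rose to 6.42 ± 0.129 FPKM in siECHS1, against 5.28 ± 0.704 FPKM in siNC (limma adjusted p = 0.0440). That call was lost in 9 of 17 alternatives, with adjusted p values up to 0.110. Of 17 tested genes listed as brakes on the early response, 1 rose and 3 fell, or 23.5% against 21.0% of all tested genes. Whether each of them restrains that response in these cells was not tested, and the list counts the clock gene Per2. The phosphatase genes Dusp14 and Dusp3 fell, as did Per2 (log2 changes -0.24, -0.19 and -0.21). Hnrnpd, which encodes the RNA-binding protein AUF1 that speeds decay of AU-rich transcripts, rose by 0.12. The call was lost in 8 of 17 alternatives for Dusp14, in 9 of 16 for Per2 and in 6 of 17 for Hnrnpd.

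Among other primary response genes 6 of 51 tested rose and 5 fell, or 21.6%, which is near the 21.0% of all tested genes. Per1, Btg1, Id1 and Plk3 were among those with the largest changes past the threshold. The clock gene Per1, which cyclic AMP signals induce, fell to 6.79 ± 0.194 FPKM in siECHS1, against 8.75 ± 0.609 FPKM in siNC. The antiproliferative gene Btg1 rose to 106 ± 12.9 FPKM in siECHS1, against 86.8 ± 4.71 FPKM in siNC, and Id1, an inhibitor of helix-loop-helix factors, to 72.7 ± 2.49 FPKM, against 61.6 ± 4.75 FPKM. The polo-like kinase gene Plk3 rose to 4.79 ± 0.370 FPKM in siECHS1, against 3.97 ± 0.194 FPKM in siNC (log2 change 0.22, limma adjusted p = 0.0356). The call was lost in 2 of 17 alternatives for Btg1 and in 8 of 16 for Plk3.

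A list of genes known as targets of AP-1, EGR1 or ATF3 contained many called genes while the 10 factors themselves contained 1. Of 33 tested targets 18 rose and 2 fell, or 60.6% against 21.0% of all tested genes, with a median change of 0.187. The list was drawn up with earlier results of these data known, and several of its genes were then known to be higher, so its count is no independent evidence. Many of these genes also answer to other factors, and activity of the proteins was not measured. The 5 largest changes were in Cd44, Nppb, Mmp9, Il6 and Gdf15. The metalloproteinase gene Mmp9, a standard AP-1 target, averaged 12.2 ± 0.669 FPKM in siECHS1 and 7.95 ± 0.210 FPKM in siNC (log2 change 0.56, limma adjusted p = 8.75e-05). The cytokine gene Il6 had 4.23, 3.41, 3.72 and 3.19 FPKM in siECHS1, against 2.68, 2.71, 1.67 and 1.81 FPKM in siNC (log2 change 0.54, adjusted p = 0.0116).

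**Figure D4:**
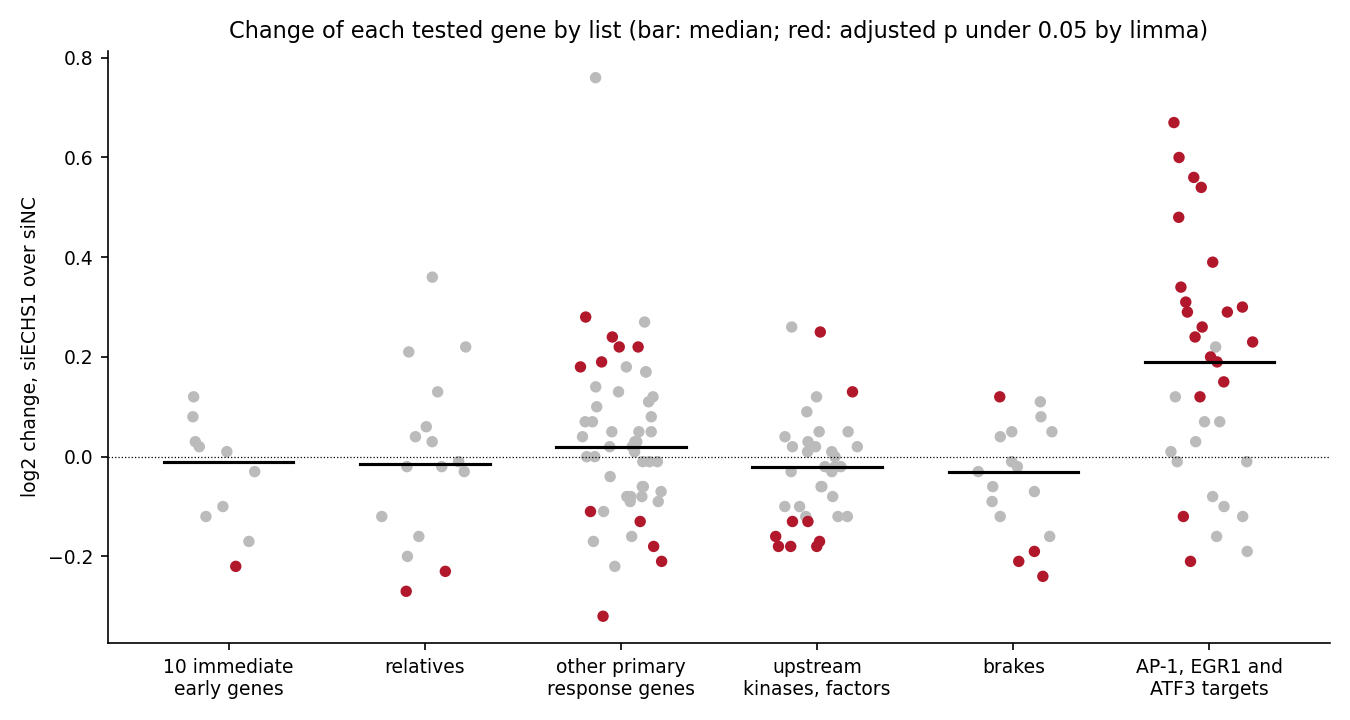
Log2 change, siECHS1 over siNC, of every tested gene in 6 lists (points; red, adjusted p under 0.05 by limma; bars, medians). The 10 immediate early genes lie between -0.22 and 0.12 around a median of -0.008, and the targets of AP-1, EGR1 or ATF3 around a median of 0.187. Several genes of the target list were known to be higher in these data when it was drawn up, so its median is no independent evidence.

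The cultures carried cardiomyocyte markers at high levels, and markers of other cells were present. The summed level of 11 cardiomyocyte markers was 8851 to 9707 FPKM in siECHS1 and 8694 to 8937 FPKM in siNC. Of these 2 were called higher and 2 lower, or 36.4% against 21.0% of all tested genes. The log2 changes of the 11 lay between -0.36 and 0.24. The 8 listed fibroblast markers summed to 3688 to 4051 FPKM in siECHS1 and 2838 to 3039 FPKM in siNC. Here 4 were called higher and 1 lower, or 62.5% against 21.0% of all tested genes. The matrix genes Dcn, Col1a1, Col3a1 and Postn rose, with log2 changes of 0.69, 0.41, 0.39 and 0.37. Dcn ranged from 133 to 143 FPKM in siECHS1 and from 78.9 to 90.1 FPKM in siNC. Col1a1 averaged 2768 ± 117 FPKM in siECHS1 and 2087 ± 90.9 FPKM in siNC. It made up most of the summed level in both groups, so the sums largely follow this 1 gene. Lum fell (log2 change -0.19), and Pdgfra, Tcf21 and Thy1 did not pass (-0.03, -0.02 and -0.11). The part of these markers in the values of Jun and its relatives was not tested. In bulk RNA a change in the number of cells of a type and a change in RNA per cell cannot be told apart. Smooth muscle markers summed to 4122 to 4488 FPKM in siECHS1 and 4315 to 4411 FPKM in siNC. Of 7, 1 was called higher and 1 lower, or 28.6% against the same 21.0%. Endothelial markers summed to 30.0 to 31.4 FPKM in siECHS1 and 28.8 to 31.4 FPKM in siNC. Of 6, 0 were called by limma and 0 had an unadjusted p under 0.05. Macrophage markers summed to 29.9 to 33.9 FPKM in siECHS1 and 30.8 to 31.9 FPKM in siNC, with 1 of 4 tested higher and 1 lower, and Ptprc, Adgre1 and Cd163 were near 0 in both groups. No marker was at 0 in every library.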

How the data were processed

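The authors deposited a table of FPKM for rat Ensembl genes, with gene positions, protein matches and a column for each library. Bowtie 0.12.2 and the builds Rnor_6.0 and mm8 appear, with no role, in the submitters' processing notes. Not given in the sources used here are the counting tool, annotation release, strand setting and treatment of multiply matching reads, and the table's header names no build. Per the labels' protocols, libraries were made from 1 µg of total RNA with a TruSeq RNA kit, and kits of that kind do not mark strand. None of the 10 genes overlaps another listed gene or shares its best protein match with another row.

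Reads behind the FPKM were recovered from the whole-number steps of low values, and 100.0% of values came out whole within 0.01 of a read. They served to state depth and counting noise, and for a limma-voom fit chosen after seeing the data. Within groups, library pairs differed by more than counting noise (chi-square per degree of freedom 2.56 to 6.02), so none was treated as a duplicate of another.

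The contrast of siECHS1 against siNC was fitted in limma 3.58.1 (R 4.3.3) with a variance trend on log2(FPKM + 1), for genes whose mean reached 1 FPKM, two-sided, with Benjamini-Hochberg adjustment and a threshold of 0.05. Echs1 lay below that filter. Scripts were tested on simulated data. Motifs were searched in RefSeq promoter windows (GRCr8). The 10 genes and all lists were chosen with earlier results of these data known. Named are all 10 genes, all tested relatives and up to 5 of the largest called changes of each other list; 1 gene that this rule names is not reported here. Atf4, Cebpb, the fibroblast genes and the macrophage genes were named after their values were seen. Tables and figures used Python 3.11.15, pandas 2.3.3 and matplotlib 3.10.9.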

Additional observations from a re-analysis of the deposited data

Results flagged for a closer look

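In groups of 4, a library was marked when its gap to the nearest other library, divided by the range of the group, exceeded Dixon's 95% critical value. Of 90 groups (45 genes in siECHS1 and siNC) 4 were marked, and chance marks about 1 in 20. Fosl1 was low in replicate 4 of siECHS1 (8.82 FPKM, against 10.2 to 10.3 in the other libraries; gap share 0.966). Junb was high in the same library (82.0 FPKM, against 71.8 to 73.2; gap share 0.861). Without that library the log2 change of Junb was 0.08. Jdp2 was high in replicate 3 of siECHS1 (21.3 FPKM, against 17.6 to 17.9; gap share 0.915), and Id1 was high in replicate 4 of siNC (68.7 FPKM, against 58.8 to 59.6; gap share 0.915).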

How the results depend on the processing

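Jun kept its direction and its call in all 17 alternatives, with log2 changes between -0.24 and -0.19 and adjusted p values between 0.000526 and 0.00646. The count of the 10 genes called was 1 in each alternative except the replicate block, where it was 2, since Junb passed there (log2 change 0.12, adjusted p = 0.0426). The replicate numbers are not known to pair the libraries. Same-numbered libraries correlated between -0.0507 and 0.173 after group means were taken off. The highest value was that of the libraries numbered 1, but not every library correlated best with its own number. Correlations this weak cannot decide whether the libraries are paired. With the block 2952 genes were called, against 2655 without it. Leaving out 1 library at a time gave 1894 to 2671 genes called. Relatives called numbered 0 without the filter on low values and 1 with the replicate block, and listed brakes called numbered 2 without the filter. Leaving out 1 library gave 0 to 2 relatives, 7 to 11 other primary response genes and 1 to 4 listed brakes. Of the uncalled members, those near 0 changed sign when 1 library was left out, within -0.04 to 0.02 for Fosl1, -0.03 to 0.04 for Ier2, -0.02 to 0.06 for Ier3 and -0.03 to 0.08 for Nr4a1. Among relatives the same held within -0.02 to 0.09 for Fosl2, -0.06 to 0.19 for Jund, -0.12 to 0.02 for Atf2, -0.05 to 0.02 for Mafg, -0.12 to 0.04 for Ier5 and -0.05 to 0.09 for Ier5l. Median-of-ratios scaling put Ier5 at 0.00 with a changed sign, and moved the median change of all genes to 0.002, against -0.014. Endothelial markers called numbered 1 without the variance trend and with voom, against 0, and smooth muscle markers 1 without the filter and with quantile normalization, against 2; the cause of these shifts was not tested. The planned edgeR and DESeq2 fits on recovered reads were not run, and limma-voom was run on those reads in their place. Among the 10 genes depth limits Fosb most, at 78 to 143 reads a library, and among the tested relatives Batf3, at 3 to 15.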

Other observations

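Jund, the JUN gene with the widest spread, was compared with other genes for its pattern over the libraries. The spread of Jund was 20.9% of the mean in siECHS1 and 22.3% in siNC, while counting alone gives 2.09% in siECHS1. Cebpb, which encodes the zipper factor C/EBP beta and was singled out after its values were seen, had 6.49, 16.7, 8.92 and 14.1 FPKM in siECHS1, against 5.30, 4.14, 8.89 and 6.40 FPKM in siNC. Replicates 2 and 4 of siECHS1 and replicate 3 of siNC were high in both genes. After the group means were taken off, the Pearson correlation of Cebpb with Jund was 0.94 over the 8 libraries. Of 9067 genes compared, all with a mean of at least 5 FPKM, 167 reached 0.8. With 8 libraries some correlations of this size arise by chance, and how many was not estimated. The count is therefore no evidence that these genes move with Jund. Batf2, a relative with a mean of 4.18 FPKM and so not among them, had 0.84, and Ier5 had 0.71. Among the 10 immediate early genes the same value was highest for Egr1 (0.53) and Junb (0.51) and lowest for Fos (-0.78). The log2 change of Cebpb between groups was 0.76 (95% interval 0.18 to 1.35, limma adjusted p = 0.0658), the largest of the tested primary response genes, and did not pass the threshold.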
